A study of Homo sapiens with 12 samples.

Results

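The genes described here are the hnRNP A/B and D family of heterogeneous nuclear ribonucleoproteins, namely HNRNPA1, HNRNPA2B1, HNRNPA3, HNRNPAB, HNRNPD, HNRNPDL and DAZAP1. Their members were chosen by gene symbol, as every skipped exon or retained intron event listed under one of these 7 symbols, out of 12085 genes with an event. The tables listed 485 of their events out of 174699, and 429 of these were covered by 10 or more reads per library on average. There were 82 such events in HNRNPA1, 84 in HNRNPA2B1, 39 in HNRNPA3, 9 in HNRNPAB, 78 in HNRNPD, 60 in HNRNPDL and 77 in DAZAP1. When 10 reads of each form, summed over the libraries of a comparison, were required as well, 163 of their events could be tested in at least 1 comparison, out of 53094 in all genes. Many of these events are versions of one another that share an exon or a skipping junction, so that they are not independent.

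PolyA RNA had been sequenced from 293A-TOA cells, a line derived from the human embryonic kidney line HEK293A, in 4 groups of 3 biological replicates. The siNT group had received non-target siRNA and the siSFSWAP group a mix of siRNAs (40 nM) against the splicing regulator SFSWAP, and the siNT/siUPF1 and siSFSWAP/siUPF1 groups had received 30 nM siRNA against UPF1, the helicase of nonsense-mediated decay (NMD), in addition, for 5 days. All 12 libraries, controls included, came from cells given 1 µM Thiamet-G (TG) for the last 6 hr, an inhibitor of the O-GlcNAcase that removes O-GlcNAc from proteins, so that no library shows these exons without TG. Skipped exon events held 25938092 to 40637076 reads per library, counted once for each event a read touches, and the lowest total was that of a siSFSWAP/siUPF1 library. SFSWAP itself had 121 ± 6.65 reads per 1000000 reads at skipped exon events in siNT and 47.1 ± 11.1 in siSFSWAP (SD, n = 3), and 72.4 and 29.1 in the groups with siUPF1, where the table holds fewer of its events. The tables hold splicing events only, so the cell line was not checked against marker genes.

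Proteins of this family carry RNA recognition motifs and a C-terminal tail, rich in glycine in the hnRNP A/B and D proteins and rich in proline in DAZAP1. hnRNP A1 and A2/B1 bind UAG-containing RNA and are known for repressing exons and for shuttling between nucleus and cytoplasm, and hnRNP D, also called AUF1, binds AU-rich elements that control mRNA turnover. A cassette exon in the C-terminal tail is a shared feature of the family, and several members carry alternative 3′ UTR splicing that turns the normal stop codon into a substrate of NMD. For each event rMATS gives the reads of the form that includes the exon or intron and the reads of the form that skips it, and the inclusion level is the share of the first after division by effective length, from 0 to 1.

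Several of the exons on which the results turn are printed in GRCh38 from the sense strand, with the exon in capitals, 20 intron bases before it and 10 after it. The cassette exons of the C-terminal tail come first, because they are the same kind of exon in 6 genes, of which 5 are shown. They are HNRNPAB exon 7 (chr5:178210132-178210272, plus strand, 141 nt), HNRNPD exon 7 (chr4:82356537-82356683, minus strand, 147 nt), HNRNPDL exon 6 (chr4:82426463-82426633, minus strand, 171 nt), HNRNPA2B1 exon 8 (chr7:26193575-26193694, minus strand, 120 nt) and HNRNPA3 exon 8 (chr2:177217705-177217845, plus strand, 141 nt). All 5 are coding and a multiple of 3 in length.
HNRNPAB exon 7: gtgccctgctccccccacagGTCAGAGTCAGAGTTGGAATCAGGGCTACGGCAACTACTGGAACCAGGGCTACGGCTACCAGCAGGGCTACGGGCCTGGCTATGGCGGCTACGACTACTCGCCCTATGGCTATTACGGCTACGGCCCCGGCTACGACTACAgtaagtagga
HNRNPD exon 7: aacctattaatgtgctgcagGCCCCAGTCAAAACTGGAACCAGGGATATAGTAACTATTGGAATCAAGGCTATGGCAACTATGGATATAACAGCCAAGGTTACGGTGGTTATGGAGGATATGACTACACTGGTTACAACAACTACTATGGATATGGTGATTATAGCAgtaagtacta
HNRNPDL exon 6: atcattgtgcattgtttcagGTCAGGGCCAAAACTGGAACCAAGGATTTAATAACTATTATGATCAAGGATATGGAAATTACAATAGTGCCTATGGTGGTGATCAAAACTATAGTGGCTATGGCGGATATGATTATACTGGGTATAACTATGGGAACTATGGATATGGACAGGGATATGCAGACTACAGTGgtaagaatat
HNRNPA3 exon 8: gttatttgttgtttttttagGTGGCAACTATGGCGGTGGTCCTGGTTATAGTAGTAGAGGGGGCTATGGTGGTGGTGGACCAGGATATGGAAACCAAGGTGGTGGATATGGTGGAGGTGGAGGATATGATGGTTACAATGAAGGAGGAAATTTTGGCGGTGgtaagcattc
HNRNPA2B1 exon 8: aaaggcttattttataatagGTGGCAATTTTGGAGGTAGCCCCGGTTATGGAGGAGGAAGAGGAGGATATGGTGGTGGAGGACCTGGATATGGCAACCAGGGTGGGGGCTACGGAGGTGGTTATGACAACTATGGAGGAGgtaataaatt

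In a global alignment of these exons, HNRNPD exon 7 and HNRNPDL exon 6 shared 64.3% of the aligned columns, and HNRNPAB exon 7 shared 59.6% with HNRNPD exon 7 and 56.7% with HNRNPDL exon 6. HNRNPA3 exon 8 shared 67.4% with HNRNPA2B1 exon 8. Identity between the D-type and the A-type exons was lower, from 45.7% to 55.6%.

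Other exons are included in nearly every RNA and lie partly in the RNA recognition motifs, and skipping of HNRNPA1 exon 2 and of DAZAP1 exons 5 and 9 in siSFSWAP libraries gave the calls with the lowest adjusted p. HNRNPA1 exon 2 codes for the start of the first RNA recognition motif. The exons of DAZAP1 are printed because they carry these calls, and they are DAZAP1 exon 5 (chr19:1421148-1421258, plus strand, 111 nt), which codes for the start of the second motif of DAZAP1, and DAZAP1 exon 9 (chr19:1429967-1429996, plus strand, 30 nt). DAZAP1 exon 7 (chr19:1425878-1425960, plus strand, 83 nt) also codes for part of the second motif, and its length is not a multiple of 3.
DAZAP1 exon 5: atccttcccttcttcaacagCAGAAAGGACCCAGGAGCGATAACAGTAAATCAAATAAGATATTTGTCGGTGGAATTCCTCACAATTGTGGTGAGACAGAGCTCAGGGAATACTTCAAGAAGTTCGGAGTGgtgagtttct
DAZAP1 exon 7: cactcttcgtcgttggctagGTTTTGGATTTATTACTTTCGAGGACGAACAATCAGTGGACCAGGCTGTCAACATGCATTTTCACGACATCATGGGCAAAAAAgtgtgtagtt
DAZAP1 exon 9: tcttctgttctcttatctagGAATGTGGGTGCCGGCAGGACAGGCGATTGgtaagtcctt

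At 150 of the 152 tested exons and introns of the family the genome has AG before the exon, or at the end of the intron, and GT at the other splice site. The pentamer TAGGG, the core of the RNA element to which hnRNP A1 is known to bind, was searched for on the sense strand in the 100 bases before and the 100 bases after each tested exon. It stood before 1 of 78 exons of the family (1.28%) against 5.8% of 30534 tested exons of all genes, and after 3 of 78 (3.85%) against 7.86%. The 78 exons lie at 32 places, so that many windows overlap and are not independent. All 3 matches after an exon were in DAZAP1, and the 1 before an exon was at a 180-nt version of HNRNPA1 exon 3. A match is only a description of these windows.

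The first question was how SFSWAP knockdown changed the inclusion of these exons and introns in cells with UPF1. Inclusion fell in siSFSWAP at HNRNPA1 exon 2, HNRNPA2B1 exon 6 and DAZAP1 exons 4, 5 and 9, each an exon that was skipped in few or no RNAs of the siNT libraries, and at a 107-nt exon of the HNRNPD 3′ UTR. It rose at the tail exons HNRNPAB exon 7 and HNRNPD exon 7 and, on few skipping reads, at HNRNPA1 exon 6 and HNRNPA2B1 exon 9. No exon of HNRNPA3 or HNRNPDL passed the test. The test was limma on the log2 ratio of inclusion to skipping reads with Benjamini-Hochberg adjustment over all events of the type, an adjusted p of at most 0.05 made a call, and the log2 odds ratio is knockdown over control, so that a negative value means more skipping.

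Of 86 skipped exon events of the family that were tested, at 32 places in the 7 genes, 20 events at 10 places were called. Of all 33839 tested events, 8.12% were called. The called events of the family belonged to 5 genes, with 7 events at 3 places in DAZAP1, 5 at 2 places in HNRNPA1, 4 at 2 places in HNRNPA2B1, 3 at 2 places in HNRNPD and 1 in HNRNPAB. Inclusion was higher at 9 of these events, which lay at 4 places, against a background of 5.26% of all events called higher, and lower at 11 events, which lay at 6 places, against 2.86% called lower. These genes are read deeply, with a median of 1468 reads per library at their events against 110 over all events, and depth raises the share that can be called. Among events read 1000 or more times per library on average, 16 of 53 of the family (30.2%) and 13.5% of all were called. The inclusion levels of the groups did not overlap at 31 of the 86 events, or 36%, against 26% of all events. The median log2 odds ratio was -0.03 in the family and 0.27 over all tested events. The other hnRNP and hnRNP-like genes, a list of 21 genes of which 14 could be tested, had 12 of 171 events called, 4 higher and 8 lower. Leaving out 1 library at a time left 7 to 18 events of the family called, retained introns included, against 21. The split by direction depended on the model and the libraries. The 21 calls were 10 higher and 11 lower, but a prior variance that followed the mean reads in place of the reads of the rarer form gave 0 higher and 6 lower, the same with a pseudocount of 1 gave 3 and 9, and a filter of 30 reads gave 4 and 11. With that filter the family was closer to all genes. It had 15 of 82 events called, retained introns included, against 15.1% of all 17036. Without it 21 of 113 were called, against 8.08% of all 39684. There were 4 higher and 7 lower without the first-listed siNT library and 3 and 9 without the third-listed. Without the first-listed, second-listed or third-listed siSFSWAP library, 1 was higher each time and 7, 11 and 6 were lower. The quasi-binomial models gave 16 higher and 19 lower with a common dispersion and 17 and 16 with a trend on reads.

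**Figure D1:**
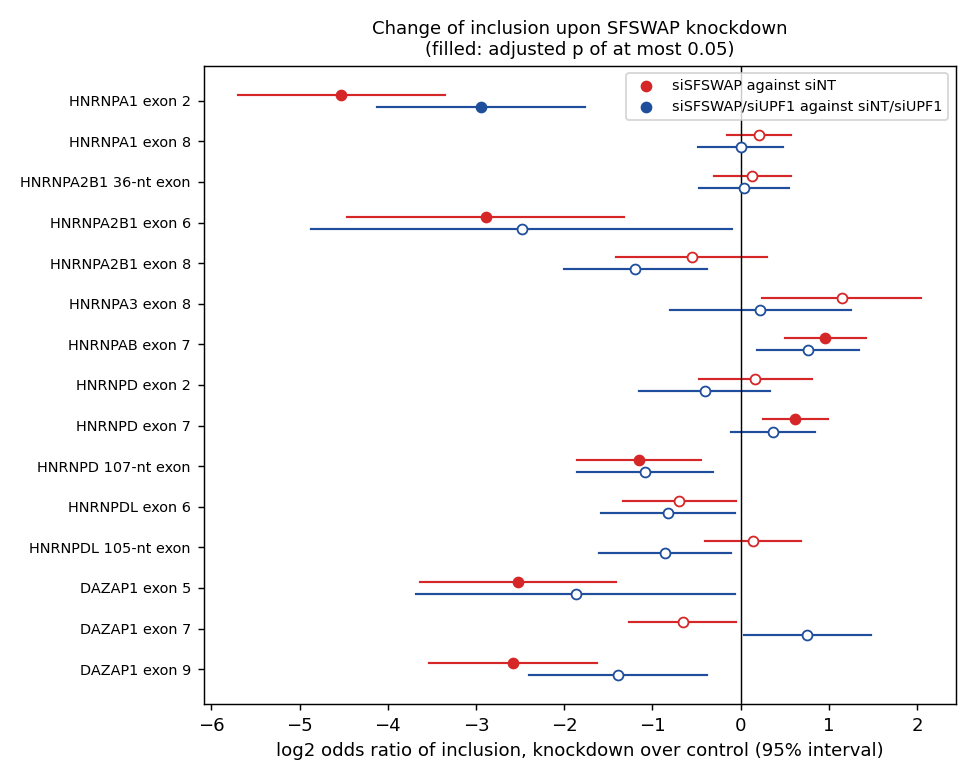
Log2 odds ratio of inclusion with its 95% interval (horizontal axis) for 15 exons of the family (vertical axis), for siSFSWAP against siNT in red and siSFSWAP/siUPF1 against siNT/siUPF1 in blue, with filled points for an adjusted p of at most 0.05. HNRNPA1 exon 2 is filled in both comparisons and lies far to the left, and HNRNPAB exon 7 and HNRNPD exon 7 are the filled points to the right of 0.

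HNRNPA1 exon 2 had the lowest adjusted p of the family's MANE exons. Its skipping reads numbered 2, 0 and 1 in the siNT libraries, beside 4356, 5431 and 5494 inclusion reads. In the siSFSWAP libraries there were 53, 23 and 55 skipping reads, beside 7772, 6882 and 7368 inclusion reads. Every siSFSWAP library was thus above every siNT library in skipping, although the skipped form was a small share of the RNA. The inclusion level was 1.000 ± 0.001 in siNT and 0.987 ± 0.005 in siSFSWAP (SD, n = 3), a log2 odds ratio of -4.53 (SE 0.57, 95% interval -5.7 to -3.35, adjusted p = 1.84e-05). The call was kept without each of the 6 libraries in turn. A 114-nt version of the exon that ends 3 bases earlier had a log2 odds ratio of -4.7 (adjusted p = 7.41e-06), but it was counted against the same skipping reads.

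DAZAP1, a splicing and translation factor named for its association with DAZ proteins, had the most called places of the family, and all of them were lower. At its 30-nt exon 9 the siNT libraries had 14, 6 and 7 skipping reads and the siSFSWAP libraries 42, 32 and 49. The lowest siSFSWAP library was above the highest siNT library. The inclusion level fell from 0.991 ± 0.005 to 0.947 ± 0.010, with a log2 odds ratio of -2.58 (SE 0.46, adjusted p = 0.000844). A 162-nt version of this exon, which begins further upstream, is measured against the same skipping reads with fewer inclusion reads, and its level was 0.895 ± 0.0235 in siNT and 0.576 ± 0.0528 in siSFSWAP (adjusted p = 0.000713). It was the only skipped exon event of the family that was both called and changed by at least 0.2 in inclusion level.

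At DAZAP1 exon 5 skipping reads numbered 3, 7 and 6 in siNT and 17, 21 and 32 in siSFSWAP. The groups did not overlap. The level fell from 0.994 ± 0.003 to 0.965 ± 0.006 (log2 odds ratio -2.52, SE 0.54, adjusted p = 0.00417), and the calls at exons 5 and 9 were both kept without each library in turn. Another listed version of exon 5, which has a more distant upstream exon and had 262 reads per library on average against 1629, had a log2 odds ratio of 0.06 (adjusted p = 0.978). At DAZAP1 exon 4, of 66 nt, skipping reads numbered 0, 1 and 1 in siNT and 14, 1 and 14 in siSFSWAP. The second-listed siSFSWAP library was thus at the level of the siNT libraries, and the log2 odds ratio was -3.18 (adjusted p = 0.0343). The adjusted p of exon 4 rose to as much as 0.234 when 1 library was left out, and the call was lost without the first-listed or the third-listed library of either group. It was lost as well with the prior variance on the mean reads (adjusted p = 0.0936, in a range from 0.00317 over the alternatives). Of 4 tested versions of exon 4, the 3 with fewer reads were not called, and their log2 odds ratios were -2.37, 1.59 and 2.34 (adjusted p = 0.214, 0.43 and 0.141), so that a pair of them lay on the other side of 0. Skipping of exons 4, 5 and 9 removes a multiple of 3 bases each.

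HNRNPA2B1 exon 6 (81 nt, chr7:26196401-26196481, minus strand) had 0, 1 and 1 skipping reads in siNT and 9, 5 and 20 in siSFSWAP. Beside them stood 7923 to 14537 inclusion reads in siNT and 13028 to 16955 in siSFSWAP, so the level only went from 0.9999 to 0.9987. The log2 odds ratio was -2.89 (SE 0.76, adjusted p = 0.0189). It missed the threshold without the first-listed siNT library and without the first-listed or third-listed siSFSWAP library, with adjusted p values up to 0.182, and in the quasi-binomial model with a trend on reads (adjusted p = 0.0563, in a range from 0.0166 over the alternatives).

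**Figure D2:**
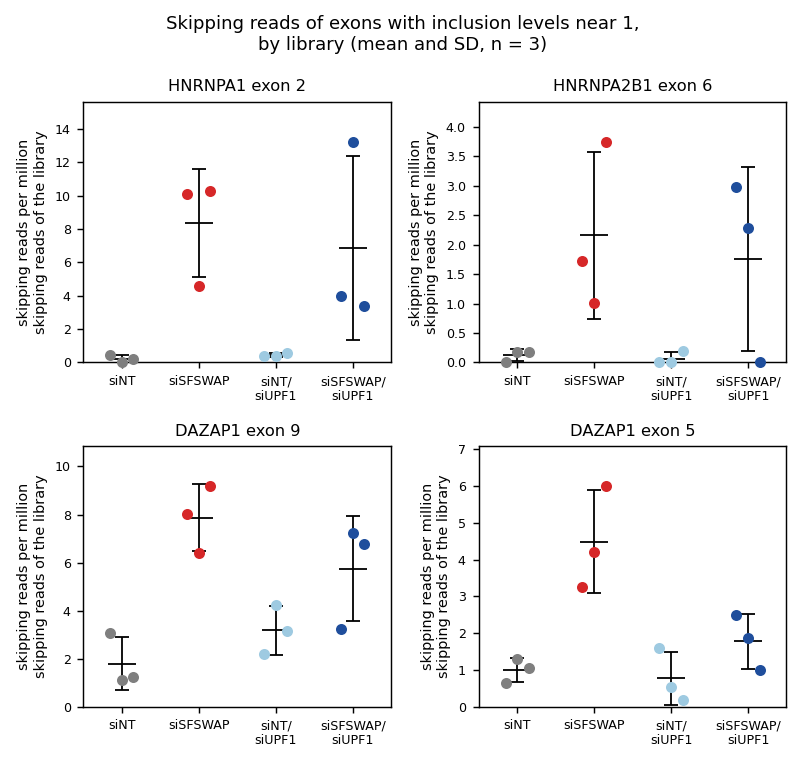
Skipping reads per 1000000 skipping reads at skipped exon events (vertical axis) in each library (points) of the 4 groups (horizontal axis), with mean and SD (n = 3), for 4 exons with inclusion levels near 1. For HNRNPA1 exon 2 the siNT libraries lie between 0 and 0.44 and the siSFSWAP libraries between 4.61 and 10.3, and 1 siSFSWAP/siUPF1 library lies at 13.2, far above the other libraries of its group.

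Calls in the other direction at exons of this kind rested on a few libraries. At HNRNPA2B1 exon 9 (chr7:26193251-26193373, minus strand) skipping reads numbered 12, 0 and 15 in siNT and 0 in every siSFSWAP library, and 3 overlapping events there were called with adjusted p values of 0.0439 to 0.0475. The second-listed siNT library held none of these reads either. Refits were made for a 460-nt version (chr7:26193251-26193710), which overlaps exons 8 and 9 and is counted against the same skipping reads. Its call was kept only without that library, with adjusted p values up to 0.291 without any of the others. With the prior variance on the mean reads its adjusted p was 0.125 (in a range from 0.00148 over the alternatives). Exon 9 by itself was not refitted. At HNRNPA1 exon 6 (93 nt) skipping reads numbered 0, 8 and 15 in siNT and 0 in all siSFSWAP libraries (adjusted p = 0.033). With siUPF1 they numbered 0, 18 and 0 without and 28, 10 and 0 with siSFSWAP, so that groups overlapped. Its call was lost without the second-listed siNT library or any one siSFSWAP library, with adjusted p values up to 0.142, and no fit was made without the third-listed siNT library, which left too few skipping reads. It was lost as well with the prior variance on the mean reads (adjusted p = 0.0804, in a range from 0.00146 over the alternatives).

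HNRNPAB codes for hnRNP A/B, also known as CBF-A, and its exon 7 separates the long from the short form of the protein. The exon was in about as many RNAs as not in siNT, with inclusion levels of 0.483, 0.531 and 0.568. In siSFSWAP the levels were 0.689, 0.657 and 0.709. Every siSFSWAP library was above every siNT library, and the mean rose from 0.527 ± 0.042 to 0.685 ± 0.026 (log2 odds ratio 0.96, SE 0.22, 95% interval 0.5 to 1.42, adjusted p = 0.00786). Both forms moved, as inclusion reads per 1000000 inclusion reads at skipped exon events went from 47.1 ± 4.59 to 60.4 ± 3.06 and skipping reads per 1000000 skipping reads from 109 ± 22.2 to 72.8 ± 6.43. The exact permutation p of each was 0.1, the smallest that 3 against 3 libraries can give. The call was lost without the first-listed siNT library and without the first-listed or third-listed siSFSWAP library, with adjusted p values up to 0.0767, and the log2 odds ratio stayed between 0.84 and 1.08. It was also lost when the prior variance followed the mean reads (adjusted p = 0.336, or 0.308 with a pseudocount of 1), which was the high end of a range from 3.24e-21 over the alternatives with all libraries.

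HNRNPD makes its p37, p40, p42 and p45 isoforms by choosing exon 2 and exon 7. Exon 7, the tail exon, had levels of 0.299, 0.288 and 0.304 in siNT and 0.406, 0.369 and 0.406 in siSFSWAP. The groups did not overlap. The mean went from 0.297 ± 0.008 to 0.394 ± 0.021 (log2 odds ratio 0.62, SE 0.18, 95% interval 0.25 to 0.99, adjusted p = 0.033), and the call held only without the second-listed siNT library, with adjusted p values up to 0.189 without any one of the others and the log2 odds ratio between 0.58 and 0.69. With the prior variance on the mean reads the adjusted p was 0.533 (0.525 with a pseudocount of 1), and over the alternatives with all libraries it ran from 1.3e-37 to 0.533. Here the inclusion form went from 52.5 ± 9.74 to 83.1 ± 13.4 reads per 1000000 of that form, and the skipping form was at 308 ± 50.6 and 326 ± 31.4. Exon 2 (57 nt, chr4:82371528-82371584, minus strand), which lies in the N-terminal part, had a level of 0.893 ± 0.018 in siNT and 0.904 ± 0.011 in siSFSWAP, and the interval of its log2 odds ratio ran from -0.47 to 0.81 (adjusted p = 0.806).

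The tail exon of HNRNPDL, which lies close to HNRNPD on chromosome 4, did not pass the test. HNRNPDL exon 6 had levels of 0.931, 0.896 and 0.951 in siNT and 0.888, 0.907 and 0.875 in siSFSWAP. The groups overlapped, and the log2 odds ratio of -0.7 (95% interval -1.34 to -0.06, adjusted p = 0.176) was on the other side of 0 from those of HNRNPAB and HNRNPD.

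The tail exons of the A-type genes were also not called. HNRNPA1 exon 8, which makes the longer hnRNP A1-B, had levels of 0.0550, 0.0560 and 0.0544 in siNT and 0.0671, 0.0652 and 0.0572 in siSFSWAP. The groups did not overlap, and the interval of its log2 odds ratio was -0.16 to 0.57 (adjusted p = 0.531). HNRNPA2B1 exon 8 had levels of 0.990 ± 0.005 and 0.986 ± 0.005, with overlap (log2 odds ratio -0.56, adjusted p = 0.458). HNRNPA3 exon 8 had levels of 0.896, 0.891 and 0.907 in siNT and 0.953, 0.918 and 0.971 in siSFSWAP. Those groups did not overlap either, but the log2 odds ratio of 1.15 had an adjusted p of 0.11. The 36-nt exon of HNRNPA2B1 that separates B1 from A2 (chr7:26197831-26197866, minus strand) had levels of 0.204 ± 0.0269 and 0.219 ± 0.0298, also with overlap, and an interval of -0.3 to 0.57 (adjusted p = 0.771).

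**Figure D3:**
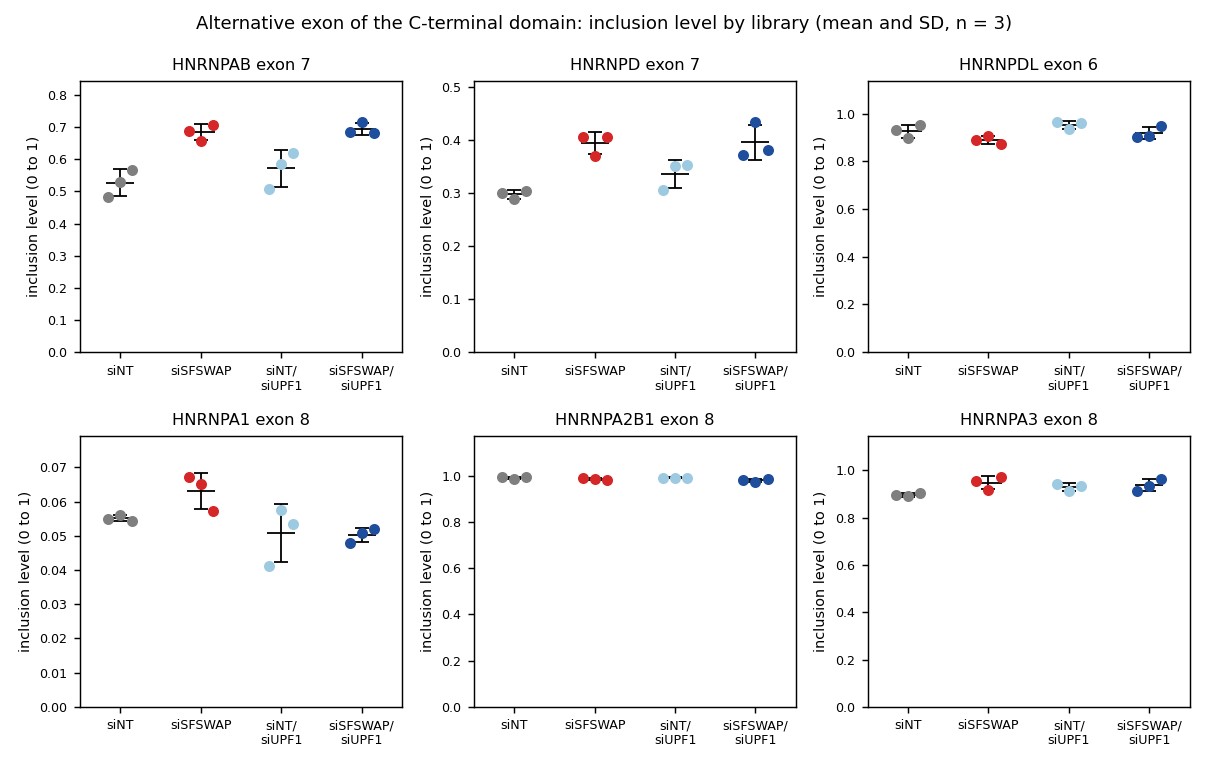
Inclusion level (vertical axis, from 0, scaled to each exon) of the C-terminal tail exon of 6 members in each library (points) of the 4 groups (horizontal axis), with mean and SD (n = 3). In HNRNPAB and HNRNPD all siSFSWAP points lie above all siNT points, at 0.657 to 0.709 against 0.483 to 0.568 and at 0.369 to 0.406 against 0.288 to 0.304.

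In the 3′ UTR of HNRNPD a 107-nt exon (chr4:82354895-82355001, minus strand) lies downstream of the stop codon, and GENCODE annotates it only in transcripts expected to undergo NMD. HNRNPDL has a 105-nt exon in its 3′ UTR (chr4:82425563-82425667, minus strand), also annotated in NMD transcripts. The splice sites of both are printed because they show how closely these exons resemble each other, with exon bases in capitals.
HNRNPD 107-nt exon, 3′ splice site: accttgtttgtacccgccagCGG
HNRNPDL 105-nt exon, 3′ splice site: accttgtttgtacccgccagCGG
HNRNPD 107-nt exon, 5′ splice site: TTGgtatggtctc
HNRNPDL 105-nt exon, 5′ splice site: GTGgtatggtctc

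Their 3′ splice sites did not differ over the 20 intron and 3 exon bases printed, and the 10 intron bases after the exon were identical as well. The exons themselves shared 74 of 109 aligned columns, or 67.9%. How far mapping exchanged reads between these genes, or with processed pseudogene copies of hnRNP genes, was not tested.

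The HNRNPD 107-nt exon had inclusion levels of 0.0363, 0.0451 and 0.0270 in siNT and 0.0136, 0.0220 and 0.0141 in siSFSWAP. Every siSFSWAP library was below every siNT library. The mean fell from 0.036 ± 0.009 to 0.017 ± 0.005 (log2 odds ratio -1.15, SE 0.34, adjusted p = 0.0361). Without the first-listed or second-listed siNT library, or without the first-listed or third-listed siSFSWAP library, the call was lost, with adjusted p values up to 0.144. The prior variance on the mean reads ended it as well (adjusted p = 0.281, or 0.241 with a pseudocount of 1, in a range from 3.69e-05 over the alternatives). The 302-nt 3′ UTR intron of HNRNPD that ends at this exon (chr4:82355002-82355303) had a retention level of 0.285 ± 0.0596 in siNT and 0.439 ± 0.0801 in siSFSWAP (log2 odds ratio 0.98, adjusted p = 0.0879). The HNRNPDL 105-nt exon had levels of 0.111, 0.168 and 0.146 in siNT and 0.146, 0.171 and 0.140 in siSFSWAP. Its groups overlapped (log2 odds ratio 0.14, 95% interval -0.4 to 0.68, adjusted p = 0.813).

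Retained introns gave 1 call in the family. Of 27 events tested at 18 places, in 5 genes, 1 was called, against 7.87% of all 5845 tested introns, of which 7.17% were called lower and 0.701% higher. The groups did not overlap at 4 of the 27, or 14.8%, against 24.6% of all. HNRNPAB and DAZAP1 had no intron that could be tested. The called event was a 272-nt HNRNPA1 intron (chr12:54283968-54284239, plus strand) that overlaps intron 9 and uses a 3′ splice site further upstream. It had 80, 65 and 72 spliced reads in siNT and 8, 6 and 23 in siSFSWAP, beside 21, 24 and 53 retained reads in siNT and 20, 43 and 26 in siSFSWAP. The spliced form was lower in every siSFSWAP library and the retained reads overlapped, so that the retention level, 0.106 ± 0.051 in siNT and 0.430 ± 0.214 in siSFSWAP, rose (log2 odds ratio 2.65, SE 0.57, adjusted p = 0.00997). The call was lost without the first-listed siNT library or the second-listed siSFSWAP library, with adjusted p values up to 0.0634, and with the prior variance on the mean reads (adjusted p = 0.113, or 0.0747 with a pseudocount of 1, in a range from 0.00277 over the alternatives). The event was not in the table of the siUPF1 groups. HNRNPA1 intron 9 as annotated, which shares its 5′ splice site, had levels of 0.0074 ± 0.0016 and 0.0055 ± 0.0001 (adjusted p = 0.201).

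No other intron of the family passed the test, and a few of the annotated ones follow. HNRNPA1 intron 7, next to the A1-B exon, had a level of 0.246 ± 0.0104 in siNT and 0.215 ± 0.0375 in siSFSWAP (adjusted p = 0.428). HNRNPA2B1 intron 5 was at 0.0998 ± 0.0044 and 0.0926 ± 0.0055 (adjusted p = 0.563), and HNRNPA2B1 intron 8 at 0.0645 ± 0.0043 and 0.0598 ± 0.0053 (adjusted p = 0.671). HNRNPA1 intron 10, in the 3′ UTR, was at 0.0252 ± 0.0025 and 0.0212 ± 0.0003 (adjusted p = 0.21). The list of other hnRNP genes had 3 of 26 introns called, all lower.

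The reads at all skipped exon events of a gene give a rough measure of its RNA, in which 1 read can count more than once. HNRNPA1 had 4120, 4528 and 4755 such reads per 1000000 in siNT and 6320, 6458 and 6988 in siSFSWAP. DAZAP1 had 1049, 922 and 1241 in siNT and 700, 805 and 804 in siSFSWAP. HNRNPA2B1 had 4244, 4920 and 5934 in siNT and 6084, 5977 and 7178 in siSFSWAP. The groups did not overlap in these 3 genes, with HNRNPA1 and HNRNPA2B1 higher and DAZAP1 lower in siSFSWAP, and the exact permutation p was 0.1 for each, the smallest possible. Of 10203 genes with 10 or more such reads per library on average, 32.0% had groups that did not overlap, 1909 higher and 1361 lower. In bulk libraries more cells with a form and more of it per cell cannot be told apart. The groups overlapped in the other genes. HNRNPD had means of 986 and 1151, HNRNPDL 1244 and 1318, HNRNPA3 747 and 747, and HNRNPAB 394 and 392. Exons of HNRNPA1 and HNRNPA2B1 were called in both directions, and those of DAZAP1 only lower. The part of the totals in these calls was not tested.

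The same comparison in cells with siUPF1 asked whether forms removed by NMD had hidden a response. It gave 1 call in the family, HNRNPA1 exon 2. Of 92 skipped exon events tested at 32 places, 1 was called (4.45% of all 34006). An unadjusted limma p under 0.05 was seen at 31 of the 92, against 6157 of all 34006. The groups did not overlap at 22, or 23.9%, against 21.6% of all. Of 24 introns, none was called by limma (1.76% of all 5105). An unadjusted p under 0.05 was seen at 3 of the 24, against 708 of all 5105. The groups overlapped at all 24, against 18.1% of all events without overlap. The list of other hnRNP genes had 5 of 144 skipped exon events and 2 of 19 introns called.

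For HNRNPA1 exon 2 skipping reads numbered 2, 2 and 3 in siNT/siUPF1 and 16, 64 and 17 in siSFSWAP/siUPF1. All siSFSWAP/siUPF1 libraries were higher, and the second-listed one stood apart. The log2 odds ratio was -2.94 (SE 0.57, adjusted p = 0.00336). Without the second-listed siSFSWAP/siUPF1 library it was -2.39 with an adjusted p of 0.107. The call was also lost with the prior variance on the mean reads (adjusted p = 0.0824, or 0.052 with a pseudocount of 1, in a range from 3.62e-05 over the alternatives). The difference between the effects with and without siUPF1 was 1.59 on the log2 scale (adjusted p = 0.879).

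Several exons called without siUPF1 had values on the same side of 0 in this comparison, without a call. HNRNPAB exon 7 had levels of 0.507, 0.587 and 0.621 in siNT/siUPF1 and 0.686, 0.715 and 0.682 in siSFSWAP/siUPF1. The groups did not overlap (log2 odds ratio 0.76, 95% interval 0.18 to 1.34, adjusted p = 0.131). HNRNPD exon 7 had levels of 0.305, 0.350 and 0.353 and of 0.371, 0.433 and 0.381, also without overlap (log2 odds ratio 0.37, adjusted p = 0.425). DAZAP1 exon 9 had 11, 23 and 17 skipping reads in siNT/siUPF1 and 13, 35 and 34 in siSFSWAP/siUPF1 (log2 odds ratio -1.39, adjusted p = 0.113). DAZAP1 exon 5 had 8, 3 and 1 and then 10, 9 and 5 (log2 odds ratio -1.87, adjusted p = 0.257). HNRNPA2B1 exon 6 had 0, 0 and 1 and then 12, 11 and 0 (log2 odds ratio -2.48, adjusted p = 0.252). The HNRNPD 107-nt exon was at 0.0368, 0.0461 and 0.0214 and then at 0.0142, 0.0165 and 0.0172 (log2 odds ratio -1.08, adjusted p = 0.109). None of the differences between backgrounds at these exons was called.

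Other tail exons were not called either. HNRNPA2B1 exon 8 went from 0.991 ± 0.0014 to 0.980 ± 0.0065 (log2 odds ratio -1.19, adjusted p = 0.0897). HNRNPDL exon 6 had levels of 0.963, 0.934 and 0.959 and then 0.901, 0.906 and 0.948 (log2 odds ratio -0.82, adjusted p = 0.233). HNRNPA3 exon 8 was at 0.931 ± 0.0154 and 0.937 ± 0.0262 (adjusted p = 0.867). HNRNPA1 exon 8 was at 0.0508 ± 0.0085 and 0.0503 ± 0.0021 (95% interval -0.48 to 0.48, adjusted p = 0.999), and the B1 exon of HNRNPA2B1 at 0.246 ± 0.0284 and 0.251 ± 0.0323 (95% interval -0.48 to 0.55, adjusted p = 0.96).

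UPF1 knockdown itself was tested by setting siNT/siUPF1 against siNT, for those events whose coordinates occur in both tables. These fits share their control libraries with the SFSWAP comparisons. UPF1 had 340 and 401 reads per 1000000 at its skipped exon events in siNT and siSFSWAP, and 68.8 and 92.9 in the siUPF1 groups, where fewer of its events are listed, so that the values are not strictly comparable. By limma 0 of 50 skipped exon events of the family were called (0.0955% of all 28261) and 8 had an unadjusted p under 0.05, against 9.49% of all. None of 14 introns was called (0.033% of all 3034) and none had an unadjusted p under 0.05, against 9.99% of all. In siSFSWAP cells 0 of 57 skipped exon events and 0 of 13 introns of the family were called, as were 0% of all skipped exon events and 0% of all introns. Unadjusted p values under 0.05 were seen at 5 of the 57 exon events and 3 of the 13 introns, against 4.2% and 4.11% of all. A quasi-binomial model called 4 and 6 events of the family in these comparisons. Its calls over all events are not given here, so these counts do not set the family apart.

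DAZAP1 exon 7 is outside the rule for named exons and was chosen for description after its values were seen. Skipping of the 83-nt DAZAP1 exon 7 shifts the reading frame. It was skipped in 86, 87 and 146 reads in siNT and 191, 387 and 180 reads in siNT/siUPF1, and the level was 0.928, 0.938 and 0.932 and then 0.869, 0.802 and 0.885. The siNT/siUPF1 libraries were all lower, with a log2 odds ratio of -1.23 (SE 0.34, adjusted p = 0.197). In the siSFSWAP libraries the level was 0.889, 0.922 and 0.879, and in the siSFSWAP/siUPF1 libraries 0.914, 0.861 and 0.939. The log2 odds ratio upon SFSWAP knockdown was -0.66 without siUPF1 (adjusted p = 0.178) and 0.76 with it (adjusted p = 0.249), and their difference of 1.42 (SE 0.42) had an unadjusted limma p of 0.00122 and an adjusted p of 0.487.

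The HNRNPDL 105-nt exon had levels of 0.289, 0.285 and 0.124 in siNT/siUPF1, against 0.111, 0.168 and 0.146 in siNT. The third-listed siNT/siUPF1 library lay within the siNT range and the other two above it (log2 odds ratio 0.8, adjusted p = 0.526). In siSFSWAP/siUPF1 the levels were 0.151, 0.168 and 0.0968, so that the ranges overlapped with siNT/siUPF1 (log2 odds ratio -0.86, adjusted p = 0.199). The HNRNPD 107-nt exon had a log2 odds ratio of -0.1 upon UPF1 knockdown (95% interval -0.91 to 0.72, adjusted p = 0.967).

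**Figure D4:**
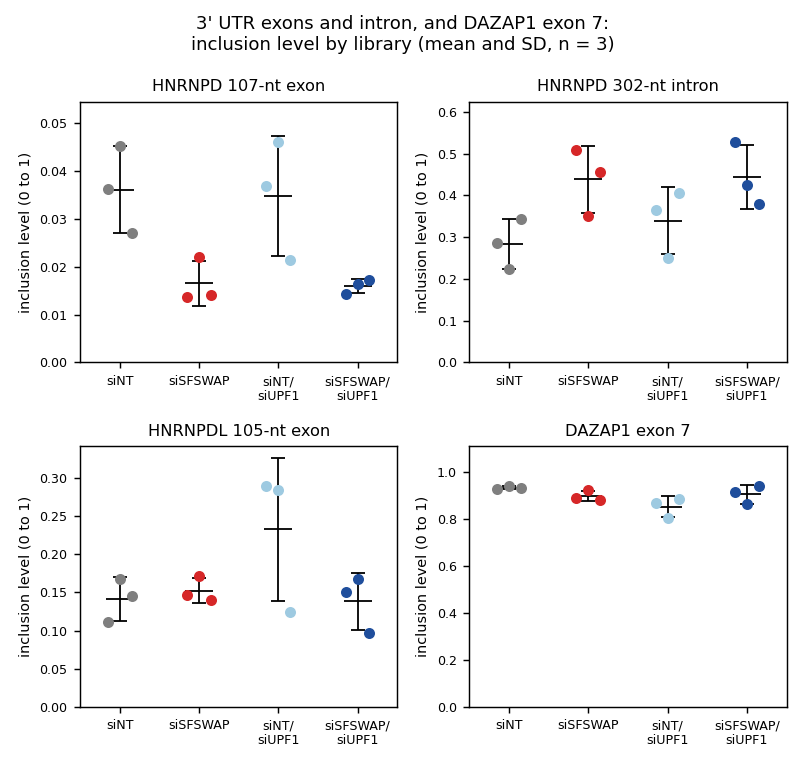
Inclusion or retention level (vertical axis, from 0, scaled to each panel) of the HNRNPD 107-nt exon and 302-nt intron, the HNRNPDL 105-nt exon and DAZAP1 exon 7 in each library (points) of the 4 groups (horizontal axis), with mean and SD (n = 3). The HNRNPD exon is lower in each siSFSWAP group than in its own control group, and only the comparison without siUPF1 was called. Across the backgrounds the ranges overlap, at 0.0136 to 0.0220 with siSFSWAP against 0.0214 to 0.0461 without it. For the HNRNPDL exon 2 siNT/siUPF1 libraries stand above all others.

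Over all 12 libraries, the test of whether the effect of SFSWAP knockdown differed with siUPF1 called 0 of 76 skipped exon events of the family by limma (0.00257% of all 38928) and 0 of 14 introns (0.0291% of all 3435). Unadjusted p values under 0.05 were seen at 7 of the exon events and 3 of the introns, against 5.64% and 5.91% of all. With a quasi-binomial model 2 events of the family were called, and its calls over all events are not given here. A p that misses the threshold in this test does not show that the effects were alike in the 2 backgrounds.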

How the data were processed

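The authors trimmed single-end reads with cutadapt 1.9.1, aligned them with STAR 2.7 to GRCh38.p8 and ran rMATS with junction and exon reads on a RefSeq annotation supplemented with predicted decoy exons. The deposited tables hold, per event and group, the 3 libraries' whole read counts of the inclusion and skipping forms joined in 1 cell, which is neither a single count nor a normalized value, in list places that carry no replicate number. The columns name only 2 sides, not groups. Which group is on which side was taken from the study's definition of the inclusion difference, control minus knockdown, and the rMATS convention of side 1 minus side 2, and every direction rests on this. The authors' own p-values, FDR values and inclusion differences are in the same tables and were not used.

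Events were tested if 10 or more reads per library on average, 10 inclusion reads and 10 skipping reads were present. The count model planned at first was replaced by another test and was not among the models simulated. In this test log2((inclusion + 0.5)/(skipping + 0.5)) was fitted in limma 3.58.1 (R 4.3.3), two-sided, with Benjamini-Hochberg adjustment over all events of a type. Its prior variance followed the reads of the rarer form, a choice made on simulated data. The simulated spread of the log odds between libraries was drawn without regard to reads. Whether this holds in these libraries was not tested. Groups were siNT, siSFSWAP, siNT/siUPF1 and siSFSWAP/siUPF1, n = 3. Between tables, events were matched by coordinates. Where several events share an exon, the one with the most reads is named.

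Named were the exons that separate known isoforms, 3′ UTR exons and introns, and per member and comparison up to 4 exons and 4 introns with the lowest adjusted p of at most 0.05. The members and lists were chosen with earlier results of these data known. Exon numbers follow the MANE transcripts in GENCODE 44. Overlapping events share reads, and pseudogene copies add uncertainty in mapping. Alternatives were quasi-binomial models, other variance trends and pseudocounts, filters of 30 reads or 1 read of each form, an added difference of 0.2, 1 event per exon, and leaving out each library. Sequences of a few exons are not reported here.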

Additional observations from a re-analysis of the deposited data

How the results depend on the processing

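Counts of family events called, skipped exons and retained introns together, depended on the model. Upon SFSWAP knockdown 21 were called, against 35 and 33 with quasi-binomial models (common dispersion, or a trend on reads), 6 with a variance trend on mean reads, 12 with that trend and a pseudocount of 1, 34 with no filter beyond 1 read of each form, and 2 with a difference of at least 0.2 required. Leaving out 1 library gave 7 to 18, with 11 and 12 without the first-listed and third-listed siNT library and 8, 12 and 7 without the first-listed, second-listed and third-listed siSFSWAP library. Over all genes these models called 4318 (10.9%), 4591 (11.6%), 1433 (3.61%) and 2189 (5.52%) of 39684 events, against 3207 (8.08%), and the added difference 1278 (3.22%). The family had 113 events tested in these. With no filter it had 34 of 330 called, against 3809 of 125785 over all genes (3.03%). All-gene calls were 1483 (4.02%) and 1823 (5.21%) without the first-listed and third-listed siNT library. They were 1682 (4.69%) without the first-listed siSFSWAP library. All-gene calls without its second-listed or third-listed library are not given here. With siUPF1, 1 family event was called, against 26 with either quasi-binomial model, 0 with the trend on mean reads, 2 with a filter of 30 reads, 14 with no filter, 0 with the added difference, 3 with a pseudocount of 1 and the main trend (an alternative chosen after seeing the data), and 1 to 6 leaving out 1 library, of which 6 came without the third-listed siNT/siUPF1 and 2 without the third-listed siSFSWAP/siUPF1 library. Over all genes these called 2638, 2768, 215, 1286, 2236, 714 and 1904 events, against 1602. For UPF1 knockdown in siNT cells 0 were called, against 4 with either quasi-binomial model and 1 with no filter, and 0 to 0 leaving out 1 library. In siSFSWAP cells 0 were called, against 6 and 3 with the quasi-binomial models, 4 with no filter, and 0 to 2 leaving out 1 library, 1 and 2 of them without the second-listed and third-listed siSFSWAP/siUPF1 library. For the difference between backgrounds 0 were called, against 2 and 3 with the quasi-binomial models and 0 to 1 leaving out 1 library, the 1 without the second-listed siSFSWAP/siUPF1 library. The cause of these differences between models was not tested. For the UPF1 comparisons and the difference between backgrounds, calls over all genes are not given. Those family counts therefore do not set the family apart. Over every tested version of an exon, the highest log2 odds ratio was 2.34 for DAZAP1 exon 4 and 0.0627 for DAZAP1 exon 5, on the other side of 0 from the version with the most reads. Of 71 fits of named exons with 1 library left out, 40 kept the call, 31 lost it and 0 turned in direction. Exons skipped in under 10 reads per library are measured with little precision. No paired analysis was possible because the places of libraries in the tables' lists carry no replicate number.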
